A study of Mus musculus with 8 samples.

Results

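Legumain, 8 cathepsins (A, B, C, D, H, L, S, and Z), and cystatin C were examined in whole kidneys of mice with and without the transcription factor c-Maf. These 10 genes (Lgmn, Ctsa, Ctsb, Ctsc, Ctsd, Ctsh, Ctsl, Ctss, Ctsz, and Cst3) were taken by name from a count table of 55367 genes, and all 10 were among the 20149 genes that passed the filter on low counts. They were chosen with their difference between the genotypes already known from these libraries, so their genotype values are given as a description, and whether a fit across all genes called them is stated without support drawn from it. The kidneys came from 4 c-MafΔTAM mice, in which a tamoxifen-inducible Cre recombinase under the ubiquitous CAG promoter acts on floxed c-Maf, and from 4 c-Maf fl/fl mice (control), in which the alleles are floxed but Cre is missing. All 8 mice were C57BL/6J at 8 weeks of age, both genotypes received tamoxifen, and the comparison is tied to TAM(10d), that is, 10 days after injection. Because the Cre is ubiquitous, the deletion is not limited to the renal tubule.

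Legumain is an asparaginyl endopeptidase that cleaves proteins after asparagine and is known for its high level in the proximal tubule, where it works in the endosomes and lysosomes that digest reabsorbed protein. The cathepsins share this acidic compartment. Cathepsins B, C, H, L, S, and Z are papain-family cysteine proteases, cathepsin D is an aspartic protease, and cathepsin A is a serine carboxypeptidase. Legumain processes several of them from the single-chain to the 2-chain form, and cystatin C is a secreted inhibitor of the papain-family enzymes and of legumain.

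Counts per mouse totaled 16649129 to 22990257, and levels are given as CPM (the counts of a gene scaled to a common library size, with TMM factors between libraries). The targeted gene, Maf, was at 9.06, 34.5, 29.6, and 10.1 CPM in the c-MafΔTAM mice and at 380, 342, 305, and 351 CPM in the control mice, and the groups did not overlap. Mitochondrial genes took 17.1% to 32.3% of the counts, with the highest share in c-MafΔTAM mouse 1. Xist, which is expressed from the inactive X chromosome of females, had 2 to 22 counts in 3 mice (c-MafΔTAM mouse 1 and control mice 3 and 4) and 17618 to 22387 counts in the other 5, while the labels give no sex. A protocol field names the liver as the RNA source whereas the tissue field names the kidney. The tubule genes Lrp2 (4466 to 8602 CPM) and Umod (1648 to 3196 CPM) were abundant in all 8 libraries. Of 12 hepatocyte markers, 8 passed the filter on low counts and Ahsg had 0 counts in all libraries. Their sum was 471 to 772 CPM, most of it Apob (435 to 710 CPM) and Fga (17.9 to 49.2 CPM), while Alb was at 1.37 and 5.65 CPM on average in c-MafΔTAM and control mice. Nothing states whether the mice shared litters or cages, so the errors measure the spread between these mice.

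Lgmn (GRCm38, chr12:102394084-102439813, minus strand, 14 merged exons, none shared with another gene) was markedly lower in c-MafΔTAM kidneys. Its level was 168.3, 150.6, 148.4, and 126.0 CPM in c-MafΔTAM mice 1 to 4, and 470.5, 491.6, 484.2, and 509.7 CPM in control mice 1 to 4. The highest c-MafΔTAM mouse was thus far below the lowest control mouse. On average it was 148.3 ± 17.4 against 489.0 ± 16.3 CPM (SD, n = 4 each), a level 69.7% lower, with a log2 fold change of -1.72 (SE 0.0998, 95% interval -1.94 to -1.50). The counts behind these levels were 2327 to 3308 in c-MafΔTAM and 8692 to 10890 in control mice. The log2 fold change stayed between -1.79 and -1.65 when each mouse was left out in turn, and was -1.77 in the 5 mice with high Xist.

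The sequence before the start of Lgmn is shown because this gene had the largest difference among the 10. In the RefSeq promoter windows of GRCm38.p6, which hold 250 bases before each annotated start, Lgmn has 2 starts. The first stretch precedes the upstream start from -250 to -86 (chr12:102439814-102439978, minus strand) and stops where the annotated first exon of the deposited table begins. The second precedes a start inside the gene (chr12:102439093-102439342, minus strand), lies outside the annotated exons, and has the E-box CACGTG in capitals.
Lgmn, upstream start: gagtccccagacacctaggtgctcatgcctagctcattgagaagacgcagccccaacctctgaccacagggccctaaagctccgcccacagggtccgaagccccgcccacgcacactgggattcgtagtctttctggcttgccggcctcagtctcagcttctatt
Lgmn, inner start: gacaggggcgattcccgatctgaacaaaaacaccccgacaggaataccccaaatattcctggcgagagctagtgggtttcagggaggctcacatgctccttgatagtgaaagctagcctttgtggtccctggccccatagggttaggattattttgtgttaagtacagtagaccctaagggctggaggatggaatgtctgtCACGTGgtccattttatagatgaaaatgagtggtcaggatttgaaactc

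Among the cysteine cathepsins, Ctsl was the one with a clear difference. It encodes a broad endopeptidase that degrades reabsorbed proteins. Ctsl was at 217.3, 228.6, 220.3, and 221.7 CPM in c-MafΔTAM mice, and at 342.5, 364.6, 358.7, and 356.4 CPM in control mice. Both groups were tight and widely separated. Mean levels of 222.0 ± 4.82 and 355.6 ± 9.38 CPM (SD, n = 4 each) gave a log2 fold change of -0.68 (SE 0.0757, 95% interval -0.85 to -0.51), that is, a level 37.6% lower. The log2 fold change was -0.70 to -0.67 with each mouse left out, and -0.66 in the 5 mice with high Xist. Ctsl (chr13:64359337-64370890, minus strand) shares 32.9% of its exonic bases with Gm47123 and Gm49230, and reads on shared bases were not counted.

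The other 5 papain-family cathepsins had no difference of this size. Cathepsin B (Ctsb, chr14:63122462-63145923), an abundant endo- and dipeptidase, was at 375.7 to 450.4 CPM in c-MafΔTAM mice and at 382.9 to 445.1 CPM in control mice (means 420.1 ± 34.5 and 405.8 ± 29.6, SD, n = 4 each; log2 fold change 0.05, 95% interval -0.15 to 0.25). The 2 groups spanned nearly the same range. The aminopeptidase cathepsin H (Ctsh, chr9:90054152-90076089) was likewise at 100.8 to 130.2 and 94.3 to 114.2 CPM (log2 fold change 0.08, 95% interval -0.13 to 0.30). The carboxypeptidase cathepsin Z (Ctsz, chr2:174427493-174439039) was at 80.2 to 111.7 and 79.8 to 109.3 CPM (-0.06, 95% interval -0.33 to 0.20).

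Cathepsins C and S are the members best known from immune cells. Cathepsin C (Ctsc, chr7:88278085-88310888), a dipeptidyl peptidase that activates granule serine proteases, was at 25.7, 26.0, 22.8, and 21.9 CPM in c-MafΔTAM mice and at 19.7, 19.8, 21.4, and 22.3 CPM in control mice. The 3 highest values were c-MafΔTAM mice, but the groups overlapped (means 24.1 ± 2.08 and 20.8 ± 1.25, SD, n = 4 each; log2 fold change 0.21, 95% interval 0.00 to 0.43). Cathepsin S (Ctss, chr3:95526786-95556403), which cuts the invariant chain in antigen-presenting cells, was at 10.2 to 14.5 and 9.30 to 12.7 CPM from only 196 to 261 counts per mouse, and its difference of 0.11 (95% interval -0.20 to 0.43) was within the spread. The summed CPM of 15 macrophage markers moved in the same direction, with 130.3 to 144.8 CPM in c-MafΔTAM mice and 110.4 to 124.2 CPM in control mice. These sums did not overlap. An exact permutation test of the sum gave P = 0.0286, the smallest possible with these mice, and an adjusted P of 0.157 over 11 sums. Of the 15 markers, 14 were tested and 0 were called by edgeR, limma-trend on quantile-normalized values, edgeR's exact test, or DESeq2, while 4 were higher at an unadjusted P under 0.05. The leading markers, Csf1r and C1qb, had means of 61.0 and 12.7 CPM in c-MafΔTAM and 54.3 and 13.1 CPM in control mice. The part of macrophage RNA in the levels of Ctsc and Ctss was not tested, and in these bulk samples fewer cells of a type and less RNA per cell cannot be told apart.

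The coding sequence around the catalytic cysteine is shown for the 6 papain-family genes, so that the same place can be compared between them. The codons are similar but not identical. Each line gives 30 coding bases of the transcript with the longest coding sequence (GENCODE transcripts of GRCm38), with the codon of the catalytic cysteine in capitals. That codon is number 108 in Ctsb, 257 in Ctsc, 139 in Ctsh, 138 in Ctsl, 148 in Ctss, and 94 in Ctsz, counted from the start codon of the precursor.
Ctsb: cagggctcctgcggctctTGTtgggcattt
Ctsc: caagaatcttgtggaagcTGCtactcattt
Ctsh: cagggggcctgtggcagcTGCtggactttc
Ctsl: cagggccagtgcgggtctTGTtgggcgttt
Ctss: cagggttcttgtggtgccTGCtgggctttc
Ctsz: ccacagtactgtggttccTGCtgggcccac

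Shared stretches as long as a read were few between these genes and others they do not overlap. Of the 36-base sequences in the transcripts of each gene, 0.701% in Lgmn, 0.604% in Ctsc, 0.881% in Ctsh, and 0% in Ctss, Ctsz, and Cst3 occurred in another gene. In Ctsa, Ctsb, Ctsd, and Ctsl the shares were 13.7%, 12.6%, 33.0%, and 27.5%, mostly with the genes that overlap them on the chromosome.

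Of the members outside the papain family, cathepsin D showed the next clearest separation. Ctsd (chr7:142375911-142388038, minus strand), the major aspartic protease of the lysosome, was at 188.7, 206.3, 179.7, and 207.9 CPM in c-MafΔTAM mice and at 214.2, 208.2, 250.6, and 240.6 CPM in control mice. The groups touched without overlapping, at 207.9 and 208.2 CPM. The log2 fold change was -0.22 (SE 0.0929, 95% interval -0.43 to -0.02). It was -0.09 in the 5 mice with high Xist, since the 2 highest c-Maf fl/fl values belonged to the mice with low Xist. Ctsd shares 34.4% of its exonic bases with Gm49369.

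Cathepsin A (Ctsa, chr2:164832873-164841032), which also protects β-galactosidase and neuraminidase 1 in a complex, was at 173.0 to 244.9 CPM in c-MafΔTAM and 181.0 to 234.8 CPM in control mice, with a log2 fold change of -0.01 (95% interval -0.28 to 0.25). The inhibitor cystatin C (Cst3, chr2:148871722-148875692) was at 107.9, 139.0, 137.3, and 139.3 CPM in c-MafΔTAM mice and at 140.9, 128.1, 141.3, and 141.7 CPM in control mice (log2 fold change -0.08, 95% interval -0.29 to 0.14). Its range in c-MafΔTAM mice came from mouse 1, the library with the highest mitochondrial share, and the other 3 lay within 2 CPM of each other. The signs of Ctsa, Ctsz, and Cst3 turned under some scalings or without single mice, so no direction is given for them.

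**Figure D1:**
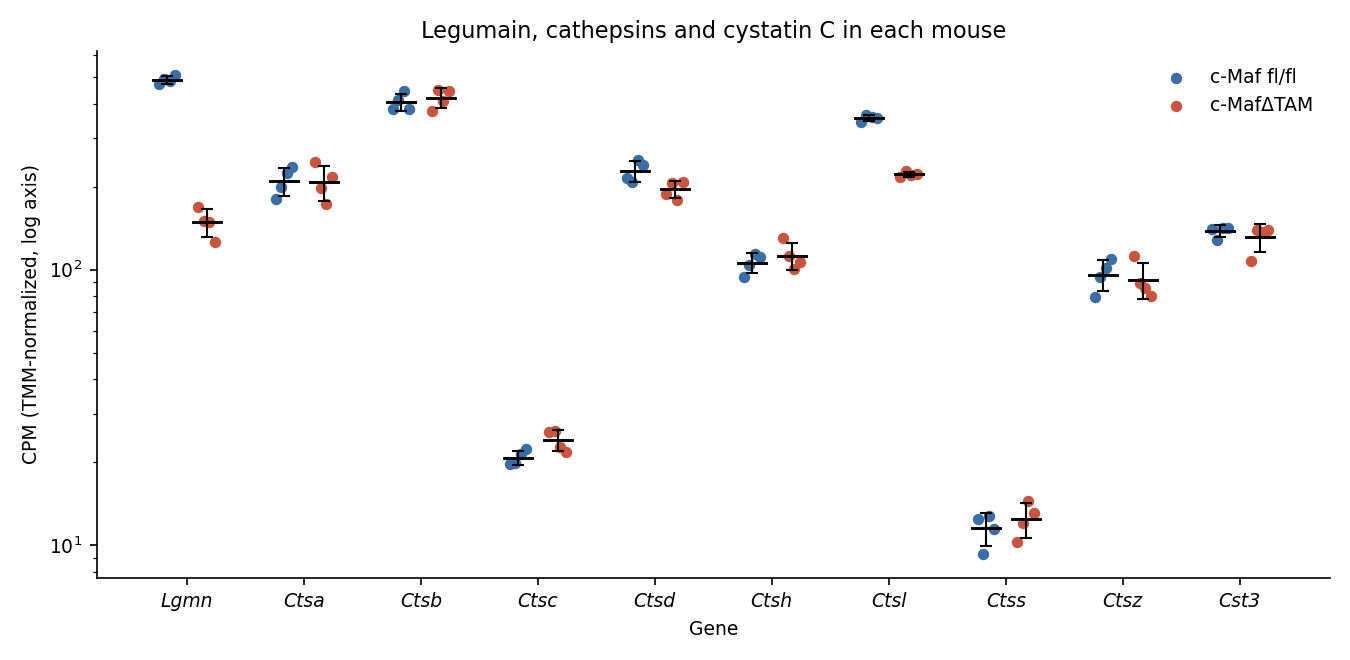
Level of each gene in each mouse as TMM-normalized CPM on a log axis, with c-Maf fl/fl (control) mice in blue and c-MafΔTAM mice in red; bars show the mean ± SD of 4 mice. Lgmn (148.3 against 489.0 CPM) and Ctsl (222.0 against 355.6 CPM) are widely separated between the genotypes, Ctsd touches, and the other 7 genes overlap.

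In the fit across all genes (edgeR's quasi-likelihood test), 436 of 20149 genes (2.16%) had an adjusted P under 0.05, of which 318 (1.58%) were lower and 118 (0.586%) were higher in c-MafΔTAM mice. Of the 10 genes, Lgmn and Ctsl were among those called lower and 0 were called higher. At an unadjusted P under 0.05, Ctsd was also lower and Ctsc higher. Limma-trend on quantile-normalized values, edgeR's exact test, and DESeq2 called the same 2 genes and 0 higher. The genotypes did not overlap in 3 of the 10 genes (Lgmn, Ctsl, and Ctsd) and in 9.79% of all genes tested. The median log2 fold change was -0.04 over the 10 genes and 0.00 over all genes. Since the genes were selected on this contrast, nothing is read from these counts. The plot of log2 fold changes sets the 10 genes beside other lysosomal genes.

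**Figure D2:**
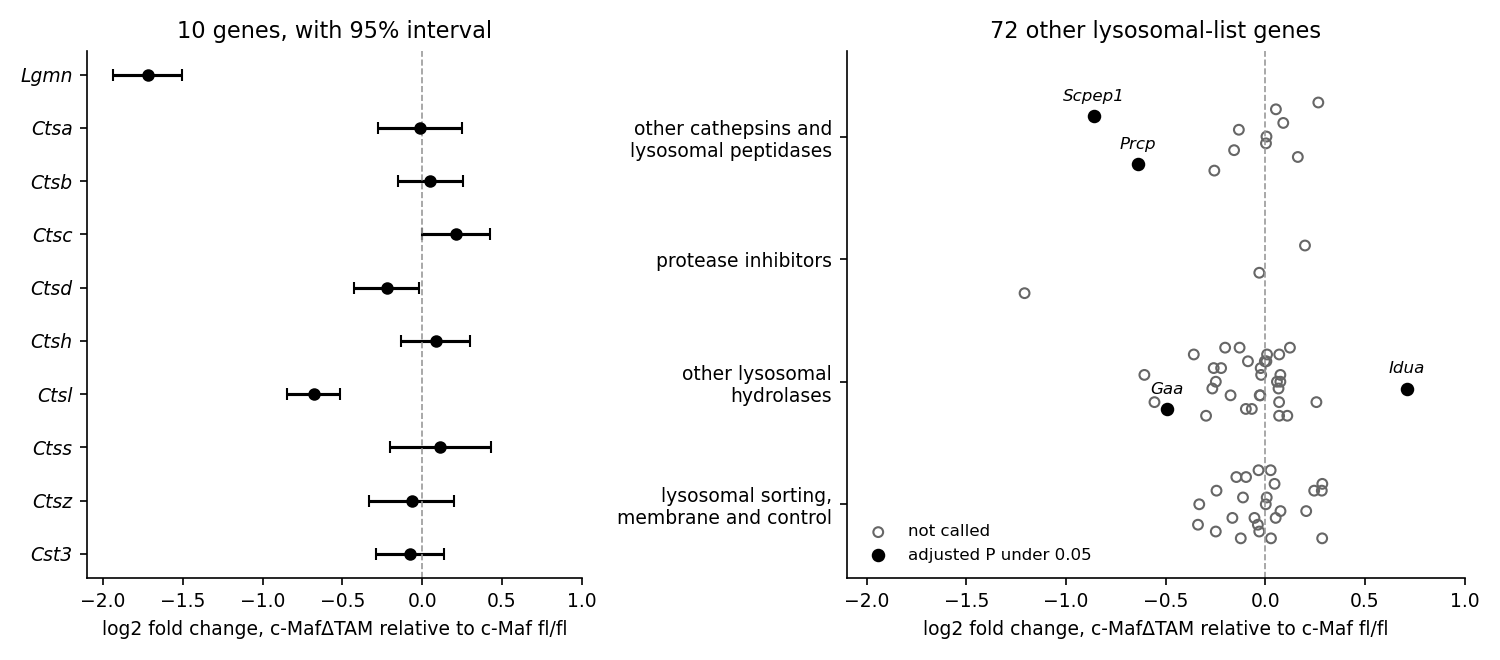
Log2 fold changes of c-MafΔTAM relative to control kidneys; the left panel gives the 10 genes with 95% intervals, the right panel 72 tested genes of 4 lysosomal lists, with filled points for an adjusted P under 0.05. Lgmn (-1.72) and Ctsl (-0.68) have intervals far below 0 on the left, and 4 of 72 genes are filled on the right (Scpep1, Prcp, Gaa, and Idua).

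Levels of different genes were compared per kilobase of exon, with the exon lengths in the deposited table. These lengths include bases shared with other genes, on which reads were not counted. The shared part is 34.4% in Ctsd, 32.9% in Ctsl, 17.4% in Ctsa, and 12.8% in Ctsb, so their levels per kb are understated. The order, the sums, and the shares below were not corrected for this. In control kidneys Lgmn was the most abundant of the 10 genes, at 211 ± 7.03 CPM per kb (SD, n = 4). Cst3 (109 ± 5.23) and Ctsd (97.1 ± 8.68) followed and overlapped with each other. Ctsb (67.1 ± 4.90), Ctsz (66.6 ± 8.69), and Ctsl (54.8 ± 1.44) came next, with Ctsz overlapping both of its neighbors. Ctsa (44.5 ± 5.18), Ctsh (23.6 ± 1.96), Ctss (8.47 ± 1.15), and Ctsc (3.58 ± 0.214) were the lowest by this length, each separated from the next in every mouse.

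In c-MafΔTAM kidneys the order changed at the top. Lgmn, at 63.9 ± 7.47 CPM per kb, was the fourth after Cst3 (103 ± 12.1), Ctsd (83.2 ± 5.85), and Ctsb (69.4 ± 5.69), and its mice overlapped with those of Ctsb and Ctsz. Ctsl, at 34.2 ± 0.742 CPM per kb, moved below Ctsa (44.1 ± 6.45). The order depends on the length used. With the longest protein-coding transcript of each gene, Ctsh (1617 bases in place of 4499) was at 65.5 ± 5.47 CPM per kb in control and 69.4 ± 7.89 in c-MafΔTAM mice, which put it at ranks 6 and 5 of the 10 genes and overlapping with Ctsz, and Ctsc was at 6.46 and 7.48 CPM per kb and still the lowest. The exons of Ctsl span 6489 bases while its transcript with the longest coding sequence has 1971 bases. With that transcript's length, an alternative chosen after seeing the data, Ctsl was at 180 CPM per kb in control and 113 CPM per kb in c-MafΔTAM mice and ranked second in both, after Lgmn and Cst3 respectively.

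The summed level of the 10 genes was 648, 666, 712, and 714 CPM per kb in control mice and 504, 514, 484, and 499 CPM per kb in c-MafΔTAM mice. Legumain made up 30.8% ± 1.07 of this sum in control and 12.8% ± 1.46 in c-MafΔTAM mice (SD, n = 4 each). Without Lgmn the sums were 446 to 503 and 420 to 449 CPM per kb and overlapped, and without both Lgmn and Ctsl they were 393 to 448 and 386 to 414 CPM per kb. The level of Cst3 relative to its papain-family targets alone, the 6 cathepsins, was 0.488 ± 0.0387 in control and 0.505 ± 0.0717 in c-MafΔTAM mice. These ratios also overlapped. Legumain, which cystatin C inhibits too and which was lower in c-MafΔTAM mice, is not in this ratio. The level of Cst3 relative to all its targets was therefore not given.

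**Figure D3:**
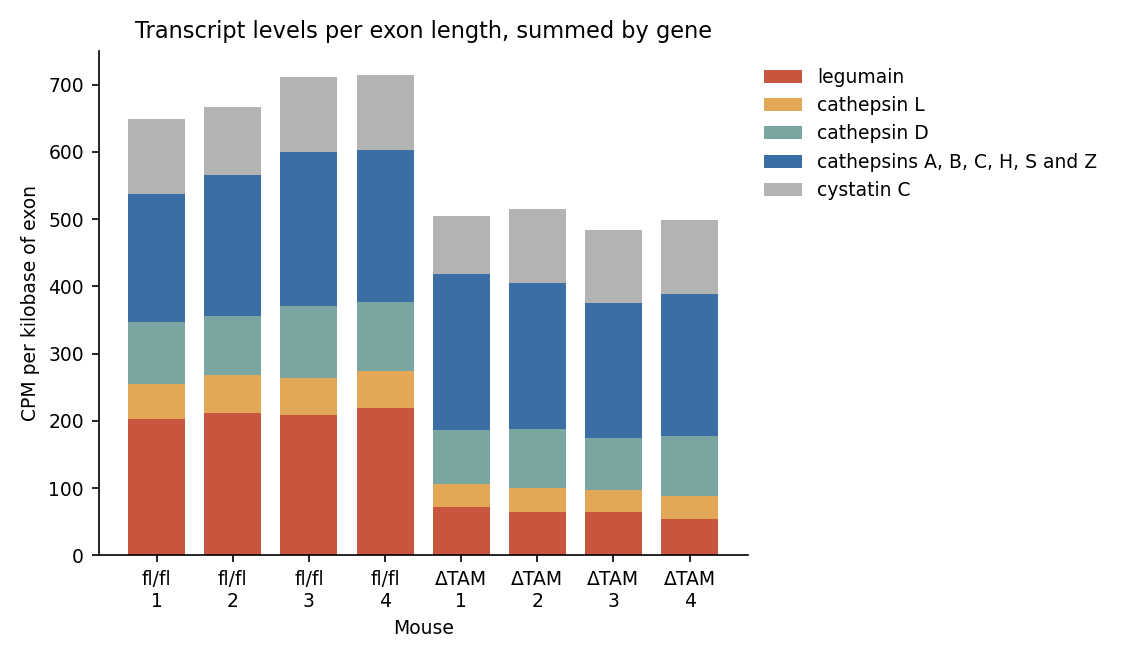
Stacked levels of the 10 genes in CPM per kilobase of exon, 1 bar per mouse. The bars of the 4 control mice reach 648 to 714 and those of the 4 c-MafΔTAM mice 484 to 514, and the legumain segment (30.8% against 12.8% of the bar) is where they differ most.

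Genes with the expression pattern most like Lgmn over the 8 mice were found by Pearson's correlation of log2 CPM among 17483 genes with at least 1 CPM on average. The 5 nearest were Cryl1 (r = 0.997), Aspa (0.995), Gpx3 (0.995), Gm5424 (0.994), and Ass1 (0.992), all of them lower in c-MafΔTAM mice. Cryl1 encodes a sugar dehydrogenase, Aspa an enzyme that cleaves N-acetylaspartate, Gpx3 the plasma glutathione peroxidase made by the proximal tubule, and Ass1 argininosuccinate synthase. Gm5424 is an argininosuccinate synthase-like gene, and reads may be split between it and Ass1. Among them Ass1 had the largest difference, 82.8% lower, and Cryl1 the smallest, 50.1% lower. Ctsl was in place 7 of this order (r = 0.988), Ctsd in place 1337 (0.713), and Ctsc had the most negative value of the 10 genes (-0.681). These correlations are over 8 mice that share the genotype difference and are descriptive.

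Within a genotype the genes varied together in part, as deviations of log2 CPM from the genotype mean show. Ctsz, Ctsh, and Ctsa deviated together (r = 0.922 for Ctsh with Ctsz, 0.898 for Ctsa with Ctsh, and 0.784 for Ctsa with Ctsz, over 8 mice), and Ctsc varied with Ctsz (0.786), Ctsh (0.740), and Ctsa (0.550). Ctss varied with Cst3 (0.794). Lgmn varied with Ctsz (0.794), Ctsc (0.751), and Ctsh (0.632), went against Cst3 (-0.681), and had a value of -0.039 with Ctsl. Lgmn deviated most in c-MafΔTAM mice 1 (0.190) and 4 (-0.228), and by -0.055 to 0.060 in control mice. Its correlations thus rest mostly on c-MafΔTAM mice 1 and 4. All these correlations are descriptions over mice that share library depth and composition.

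The 3 mice with low Xist had the highest levels of Ctsa and Ctsz. For Ctsz they were at 111.7, 101.1, and 109.3 CPM, whereas the other 5 mice were at 79.8 to 93.7 CPM. For Ctsa they were at 244.9, 224.6, and 234.8 CPM, whereas the other 5 mice were at 173.0 to 216.6 CPM. These values cut across the genotypes, and since the split was noted in these data and the sexes are not stated, no test was made.

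**Figure D4:**
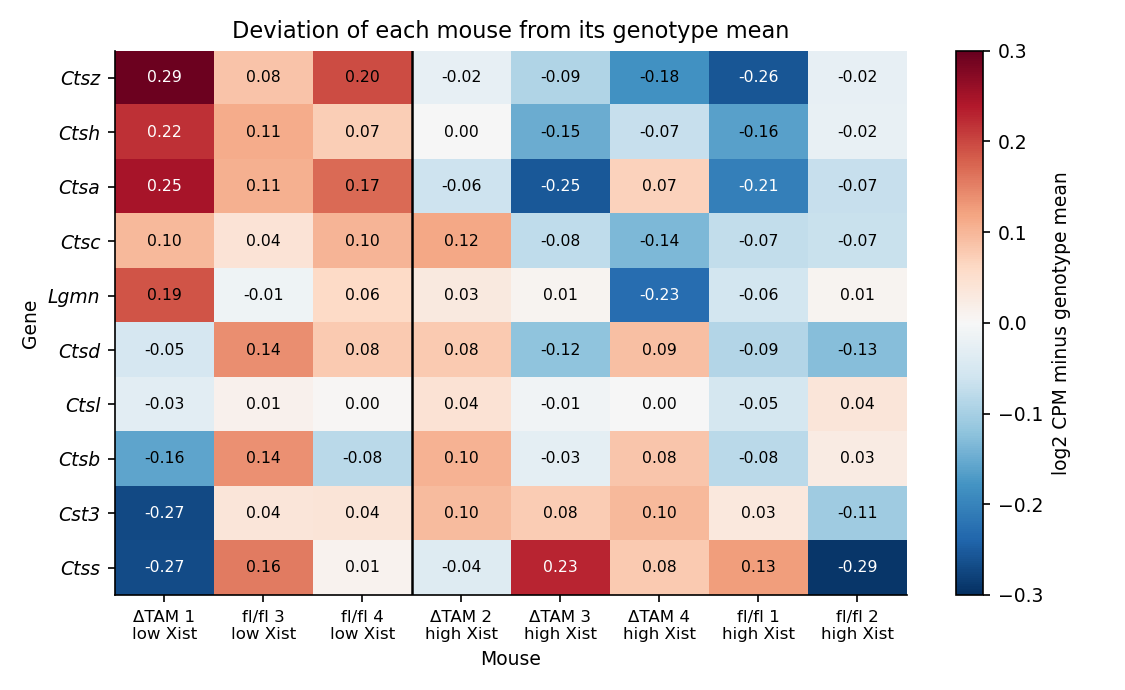
Log2 CPM of each gene in each mouse minus the mean of its genotype, with the 3 mice of low Xist left of the line. Ctsz, Ctsh, Ctsa, and Ctsc are above their genotype mean in all 3 of these mice (0.04 to 0.29), and Cst3 and Ctss are lowest in c-MafΔTAM mouse 1 or control mouse 2.

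Other lysosomal genes were counted in 4 lists, 95 genes in all, of which 72 were tested and 4 called by edgeR's quasi-likelihood test with Benjamini-Hochberg adjustment. Of 11 tested peptidases outside the 10 genes, 2 were lower, and the median log2 fold change was 0.00, as over all genes. The serine carboxypeptidase gene Scpep1 was at 59.6, 62.5, 57.8, and 55.5 CPM in c-MafΔTAM mice and 98.7, 96.0, 120.5, and 112.5 CPM in control mice (log2 fold change -0.86, SE 0.0917, adjusted P = 0.000318). Prcp, a prolylcarboxypeptidase that removes C-terminal residues from angiotensin II, was at 28.4, 22.2, 22.8, and 23.3 against 38.7, 40.2, 36.1, and 35.5 CPM (-0.64, SE 0.100, adjusted P = 0.006). Both are serine carboxypeptidases, as is cathepsin A. The most abundant genes of this list, Napsa (1272 ± 266 and 1266 ± 191 CPM) and Tpp1 (188 ± 31.1 and 188 ± 30.6 CPM; SD, n = 4 each, c-MafΔTAM first), were not called.

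Of 33 hydrolases, 1 was lower and 1 was higher, with a median of -0.03. Gaa, the acid α-glucosidase that degrades lysosomal glycogen, fell from 131.6 ± 2.83 to 93.5 ± 9.12 CPM (log2 fold change -0.49, adjusted P = 0.0112 by edgeR). Idua, an iduronidase that degrades glycosaminoglycans, rose from 10.5 ± 1.33 to 17.2 ± 1.68 CPM (0.71, adjusted P = 0.0123 by edgeR), and this call was lost without c-MafΔTAM mouse 3 (adjusted P = 0.0583). The abundant saposin precursor gene Psap (917 to 2000 and 976 to 1606 CPM) was not called and was highest in the 3 mice with low Xist.

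Of 3 tested protease inhibitors, edgeR called 0, with 1 lower at an unadjusted P under 0.05, and limma-trend, edgeR's exact test, and DESeq2 also called 0. Cstb, the cytosolic cystatin, was at 24.5 ± 2.57 and 21.3 ± 4.23 CPM, and Ctla2a, an inhibitor of cathepsin L-like enzymes, at 1.92 ± 0.584 and 1.96 ± 0.777 CPM (SD, n = 4 each). Of 25 sorting, membrane, and control genes, edgeR's quasi-likelihood test called 0, with 1 lower and 1 higher at an unadjusted P under 0.05, and DESeq2 called 1 (Gnptg, lower), while limma-trend and edgeR's exact test called 0. Lrp2 encodes megalin and Cubn cubilin, the receptors that bring filtered protein to the lysosome. Lrp2 was at 6759 ± 1548 CPM in c-MafΔTAM and 7580 ± 684 CPM in control mice, and Cubn at 1276 ± 65.1 and 1307 ± 94.8 CPM, and neither was called.

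**Figure D5:**
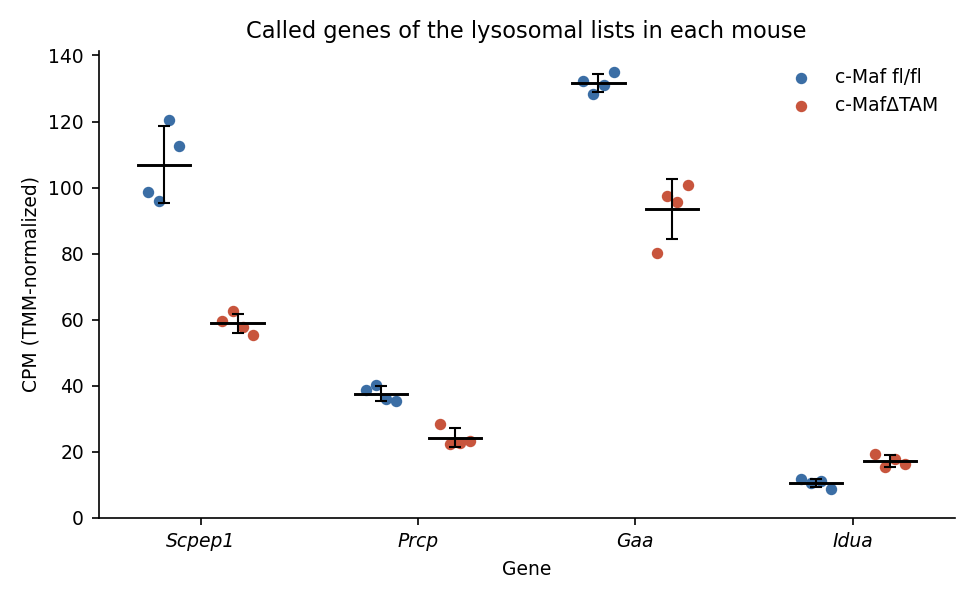
TMM-normalized CPM of the 4 called genes of the lysosomal lists in each mouse, with c-Maf fl/fl (control) mice in blue and c-MafΔTAM mice in red; bars show the mean ± SD of 4 mice. Scpep1, Prcp, and Gaa are lower and Idua is higher in all 4 c-MafΔTAM mice than in any control mouse.

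Some markers of the first segments of the proximal tubule were also lower. The summed level of 10 markers of its S1 and S2 segments was 9114 to 13095 CPM in c-MafΔTAM and 16258 to 18362 CPM in control mice, without overlap. The exact permutation test of this sum gave P = 0.0286, again the smallest possible, and an adjusted P of 0.157 over 11 sums. Of the 10, edgeR called 5 lower, namely Slc5a2, Slc5a12, Slc34a1, Slc4a4, and Gatm, and 0 higher, as did limma-trend. The exact test of edgeR and DESeq2 each called 6 lower, with Slc13a3 in addition, and 0 higher. Lrp2 and Cubn, which are on this list too, were not called, as above. The sums of 7 S3 markers, 10 markers of other nephron segments, 10 lymphocyte markers, 12 hepatocyte markers, and 10 injury markers overlapped between the genotypes, and edgeR's quasi-likelihood test called 1 of their genes (Krt8, lower). Among the hepatocyte markers, DESeq2 and edgeR's exact test called Alb lower, and the exact test called Serpina1a higher. Further markers of these lists were not called, namely Slc12a1 (1655 ± 267 and 1609 ± 200 CPM), Spp1 (533 ± 129 and 732 ± 262 CPM), Clu (213 ± 45.3 and 207 ± 29.5 CPM), Cd8a (1.32 ± 0.377 and 1.00 ± 0.302 CPM), and Cd4 (1.15 ± 0.192 and 0.641 ± 0.302 CPM; SD, n = 4 each, c-MafΔTAM first). Spp1 was called lower in the 5 mice with high Xist (log2 fold change -0.69, adjusted P = 0.000231 by edgeR) and with Xist as a covariate (-0.62, adjusted P = 0.000236). With that covariate the S3 markers Atp11a (0.54, adjusted P = 0.0111 by edgeR) and Aadat (0.33, adjusted P = 0.0281) were called higher. In the 5 mice with high Xist, Atp11a was called (0.40, adjusted P = 0.0491 by edgeR) and Aadat was not (0.36, adjusted P = 0.108). The part of a loss of S1 and S2 cells or of their RNA in the level of Lgmn was not tested.

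The E-box CACGTG, which is also the center of the CLEAR element TCACGTGA found in many lysosomal genes, was searched in the 250 bases before 10 RefSeq starts of 8 of the genes (Ctsb and Ctsh have no window). It occurred in 4 of the 10 windows, against 6.02% of 32851 promoter windows, and TCACGTGA occurred in 2 (Ctsa and Ctsd), against 0.785%. Both are palindromes, so a match stands on both strands, and each TCACGTGA is also an E-box match. The Maf half-site TGCTGAC and the AP-1 core TGAGTCA, searched on both strands, occurred in 0 of 10 windows, against 3.81% and 4.46% of all windows. A match is a description of the letters and says nothing of binding, and the genes with an E-box include Ctsa and Ctsd as well as Lgmn and Ctsl. The matches are shown with up to 11 bases on each side, the E-box in capitals, and the Lgmn match is the one printed above. Every window with a match precedes a start inside the annotated gene. The Ctsa stretch and the near Ctsd stretch lie wholly in annotated exons, as do 14 of the 28 bases of the Ctsl stretch. The far Ctsd stretch lies outside the annotated exons. The Ctsd matches are at chr7:142388056-142388077 and chr7:142387909-142387936, the Ctsl match at chr13:64370740-64370767, and the Ctsa match at chr2:164833750-164833772 (GRCm38.p6; minus strand except Ctsa).
Ctsa: gagcaaactgtCACGTGatgcag
Ctsd, far: tccccCACGTGacctgtatcca
Ctsd, near: cgcccgcgtctCACGTGacccgttgagg
Ctsl: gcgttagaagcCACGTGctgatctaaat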

How the data were processed

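RNA-Seq counts of 8 whole kidneys were used. The authors deposited raw counts per gene name from featureCounts (2.0.1 in the file header; per the labels, Subread 2.0.2) on Ensembl 102 exons of GRCm38. Each read of a pair was counted singly, strand was ignored, and reads on exons of several genes were left out. The aligner is not given in the sources used here. The paper's own route (CLC Genomics Workbench) starts from reads and was not repeated.

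The 10 genes and all lists were chosen with earlier results of these data known. Genes passing filterByExpr (20149) were scaled by TMM and tested with edgeR 4.0.16's robust quasi-likelihood fit (R 4.3.3, limma 3.58.1), unpaired, without covariates, and adjusted by Benjamini-Hochberg over all genes at 0.05. Log2 values used a prior count of 2. SE is the absolute log2 fold change over the square root of F. Libraries of one genotype all differed beyond sampling noise. Genes were named as follows: Maf; the 10 genes; each list's called genes (up to 8, or 4 for markers) and 2 most abundant; the 5 nearest to Lgmn. Alternatives were RLE, upper-quartile, and quantile scaling, edgeR's exact test (at least 5 counts in total), DESeq2 1.42.0, 2 other filters, the replicate block, an Xist covariate, high-Xist mice, no mitochondrial or rRNA genes, an adjusted P of 0.01, other lengths, and each mouse left out. Scripts were tested on simulated data. A protein comparison was not run, and 1 gene that the naming rule selects is not reported here.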

Additional observations from a re-analysis of the deposited data

Results flagged for a closer look

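In each group of 4 mice, a mouse was marked when its gap to the nearest other mouse exceeded Dixon's 95% limit as a share of the group's range. Over 78 groups, 9 were marked, where chance gives about 3.9. Among the 10 genes this concerned Cst3 alone, at 107.9 CPM in c-MafΔTAM mouse 1 against 137.3 to 139.3 CPM in the other 3, and at 128.1 CPM in control (c-Maf fl/fl) mouse 2 against 140.9 to 141.7 CPM.

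The other marked values in c-MafΔTAM mouse 1 were Aadat (129.9 against 681 to 783 CPM), Atp11a (3465 against 845 to 948), Lrp2 (4466 against 7183 to 7710), Prcp (28.4 against 22.2 to 23.3), and Psap (1999.8 against 917 to 1016). In control mouse 2 they were Csf1r (58.0 against 52.7 to 53.5) and Lrp2 (8602 against 7165 to 7292). The c-MafΔTAM mouse 1 is the one with low Xist among the c-MafΔTAM mice.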

How the results depend on the processing

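As a description, since the genes were chosen on this contrast, Lgmn and Ctsl and no other of the 10 genes were among those called in all 20 alternatives, the replicate block included. The log2 fold change ran from -1.79 to -1.62 for Lgmn and from -0.70 to -0.59 for Ctsl. Over all genes, 436 were called, against 887 by DESeq2, 1471 with an Xist covariate, 789 in the 5 high-Xist mice, and 239 to 452 with 1 mouse left out (256, 239, and 285 without c-MafΔTAM mouse 2, c-MafΔTAM mouse 3, and control mouse 3). Of the lysosomal lists, 3 genes were called lower and 1 higher. The Xist covariate gave 8 and 3, and the high-Xist mice gave 5 lower. At an adjusted P under 0.01, 0 were higher, and without 1 mouse 3 were lower and 0 to 1 higher.

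Samples share only replicate numbers. The deviations of equal-numbered mice correlated at -0.373 to 0.152. The mice numbered 1, 3, and 4 differed in Xist between the genotypes, so these correlations cannot tell whether the numbers pair mice. The replicate block left 129 genes called overall and, of the lists, 1 lower (Scpep1) and 0 higher. The call of Maf was lost with the block (log2 fold change -4.28, adjusted P = 0.0516 by edgeR) and in the high-Xist mice (-3.87, adjusted P = 0.108), against -4.05 and 0.0115 over all mice. Ctss (196 to 261 counts) and Ctsc (380 to 507 counts) had the fewest counts of the 10 genes. The SE of the log2 fold change was 0.145 for Ctss and 0.0971 for Ctsc. For Ctsa, with 3119 to 4813 counts, it was 0.121, and an effect of depth was not tested. The order of levels per kb depends on the length taken, mostly for Ctsl, Ctsh (23.6 or 65.5 CPM per kb in control mice), and Ctsc (3.58, 6.46, or 8.34).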

Other observations

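Neu1, the neuraminidase held in a complex by cathepsin A, was at 174 and 256 CPM on average in c-MafΔTAM and control mice (log2 fold change -0.56, adjusted P = 0.203 by edgeR), with -0.37 and an adjusted P of 0.0148 in the 5 mice with high Xist. Arsb, an arylsulfatase of glycosaminoglycan breakdown, was at 99.4 and 151 CPM (-0.61, adjusted P = 0.366), with -0.43 and an adjusted P of 0.0255 in those mice. Neither was called over all 8 mice without a covariate, and the genotypes overlapped in both. Lipa and Hexa did not overlap between the genotypes (log2 fold changes -0.30 and -0.36) and were not called without a covariate (adjusted P = 0.188 and 0.195 by edgeR). With Xist as a covariate over all 8 mice, edgeR called all 4 genes lower, with an adjusted P of 0.00126 for Neu1, 0.00335 for Arsb, 0.0358 for Lipa, and 0.00639 for Hexa. In the 5 mice with high Xist, Lipa and Hexa were not called (adjusted P = 0.0631 and 0.0879 by edgeR). These 4 genes were named after their values were seen.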
